A study of Mus musculus with 16 samples.

Results

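The Eph, ephrin, semaphorin, plexin, neuropilin, Slit, Robo, netrin and Unc5 families are the ligands and receptors that steer growing axons and vessel sprouts. Their members were chosen by gene symbol alone, as every probe whose platform symbol belongs to 1 of these families. The choice gave 164 probes of 45281 on the array, for 64 genes of 19057 named on the array, in 8 families. A gene counted as tested where a probe was detected on at least 4 of 16 arrays. This held for 44 of the 64 genes, among 11324 genes tested in all.

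The study profiled mouse embryos and their yolk sacs (strain C57BL/6J, 9.5 dpc, days post coitum) on Illumina bead arrays. Crosses between carriers of an exon 6 deletion in rudhira, named Bcas3 on the array, gave homozygous mutants (-/-) and wild types (+/+), with the genotype read from the embryonic tail. The 8 RNA samples formed 4 groups of 2, namely mutant yolk sac, wild-type yolk sac, mutant embryo and wild-type embryo. Embryo 1 and yolk sac 1 of a genotype are from 1 conceptus, likewise embryo 2 and yolk sac 2, so 4 conceptuses were sampled. By the labels the mutants were growth retarded with abnormal vessels and the wild types were normal. Whole embryos and whole yolk sacs were used, and each RNA was read on 2 arrays, which were averaged.

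In the growing nervous system these families work as contact or gradient cues. Ephrins on 1 cell activate Eph receptors on its neighbour, semaphorins act through plexins with neuropilins as co-receptors, Slits act through Robos, and netrins attract through Dcc and repel through Unc5 receptors. Several members are reused in vessels: Efnb2 marks arteries and Ephb4 veins, Nrp1 is also a co-receptor for Vegfa, Plxnd1 on endothelium reads Sema3e, and Robo4 and Unc5b are the endothelial members of their families. The yolk sac at this stage is a vascular membrane of visceral endoderm, mesoderm and primitive blood without neurons.

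Levels are log2 values after background correction and normalization over all arrays. Because probes differ in how brightly they bind, no probe's level was set against another's. Probes detected per array ranged from 17374 to 19538, and the SD of the log2 difference between repeat arrays of 1 RNA ranged from 0.142 to 0.202. Before normalization the 75th percentile signal was 67.0 to 74.8 on mutant and 97.6 to 140.7 on wild-type yolk sac arrays, and 108.7 to 124 on mutant and 109.5 to 125.5 on wild-type embryo arrays. The tissues carried their markers: the summed signal of 14 visceral endoderm markers was 121358 to 131575 in yolk sacs and 1321 to 21758 in embryos. Some libraries stood apart. Within wild-type embryos that sum was 1321 in embryo 1 and 21758 in embryo 2. The summed signal of 10 primitive erythroid markers reached only 44747 for the library labelled mutant embryo 2 and lay between 89503 and 104279 for the other embryos.

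The deleted gene itself, Bcas3, had log2 levels of 8.44 and 8.53 in mutant yolk sacs and 9.62 and 9.90 in wild-type yolk sacs. In embryos it stood at 8.11 in mutant embryo 1, with 9.28 for the library labelled mutant embryo 2, against 8.34 and 8.62 in wild-type embryos 1 and 2. The yolk sac groups did not overlap (log2 difference -1.27 ± 0.33 SE, limma adjusted p = 0.0992), while the library labelled mutant embryo 2 lay above both wild-type embryos. Where the probe lies relative to the deleted exon is not known here, so this probe does not settle the label. Differences of the called members and of marker lists in embryos are therefore given with and without that library. A fit without it leaves 1 mutant embryo, whose spread is borrowed from the other groups, so only effect sizes are read.

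Of the 44 tested members, 26 were detected on all 16 arrays. The receptors Epha3, Epha7 and Unc5c and the ligands Sema3a and Sema3c were detected on no yolk sac array by any probe, and Sema3g on no embryo array. The Robo2 probe used was detected on no yolk sac array either, but another kept Robo2 probe was detected on 3 mutant and 1 wild-type yolk sac arrays and on no embryo array. The 20 members that were not tested were Epha5, Epha6, Epha10, Ephb3, Ephb6, Efna2, Efna3, Sema3d, Sema3e, Sema4f, Sema6c, Plxna1, Plxna3, Plxna4, Plxnb3, Plxnc1, Slit1, Ntn4, Unc5a and Unc5d. None of them was detected on more than 3 arrays. In the heat map of members by sample the widest contrast lay between the tissues.

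**Figure D1:**
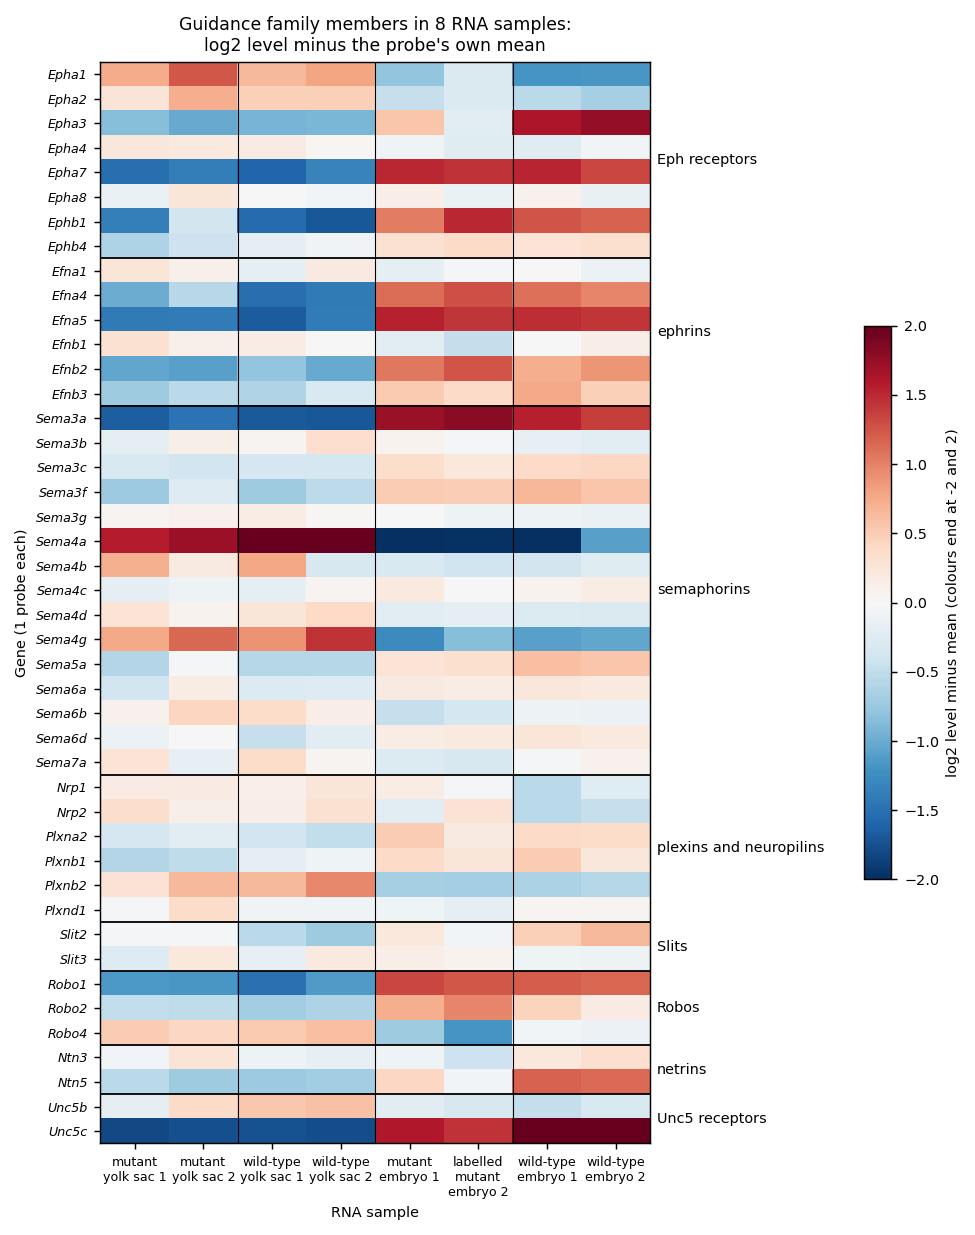
Log2 level of each of the 44 tested members (rows, 1 probe each, by family) in the 8 RNA samples (columns), minus the probe's own mean over the samples, so rows show pattern and not level. Sema4a, Sema4g and Epha1 are red in the 4 yolk sacs, while Unc5c, Sema3a, Efna5 and Epha7 are red in the 4 embryos, and Epha3 and Ntn5 are paler in the mutant embryos than in the red wild-type embryos.

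The embryo comparison asks which guidance members differ where rudhira carries the deletion. In all, 4 of 44 members fell in mutant embryos and 0 rose: the Eph receptor Epha3, the netrin Ntn5, the endothelial Robo receptor Robo4 and the netrin receptor Unc5c. Over all genes tested, 2.14% were called in this comparison and 1.53% were called lower, against 9.09% of members. The members' median log2 difference was -0.02 beside 0 for all genes. At an unadjusted p under 0.05 there were 13 members of 44 (29.5%), against 12.5% of all genes. These are bulk samples, in which fewer cells of a type and less RNA per cell cannot be told apart.

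Epha3, a receptor for A-class ephrins found on motor axons and on mesenchyme, had a log2 level of 5.94 in mutant embryo 1, with 5.16 for the library labelled mutant embryo 2, against 7.00 and 7.14 in wild-type embryos. The 2 groups did not overlap, and the probe was detected on 3 of 4 mutant and 4 of 4 wild-type embryo arrays. Epha3 fell by 1.52 ± 0.23 (SE) on the log2 scale, which put mutants at 0.349 times wild type (adjusted p = 0.022). A second Epha3 probe differed by -0.92, but it was detected on 1 of 4 mutant and 4 of 4 wild-type embryo arrays and on no yolk sac array. It met the filter through the wild-type embryos, so no support is drawn from it. Ntn5, a secreted member of the netrin family, stood at 5.88 and 5.42 in the same mutant libraries, against 6.64 and 6.59 in wild types, again without overlap. It fell by 0.97 ± 0.15 on the log2 scale (0.511 times wild type, adjusted p = 0.0273).

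Robo4, which is largely restricted to endothelium and steadies vessel walls, had 7.25 and 6.78 in the mutant libraries, against 7.90 and 7.85 in wild-type embryos. The mutant embryos lay below both wild types, and Robo4 fell by 0.86 ± 0.15 on the log2 scale (0.552 times wild type, adjusted p = 0.0402). Unc5c, which turns axons away from netrin, had 7.96 and 7.81 in the mutant libraries, against 8.37 and 8.39 in wild types. Its fall was smaller, 0.49 ± 0.09 on the log2 scale (0.710 times wild type, adjusted p = 0.0467), and a second Unc5c probe differed by -0.55.

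All 4 differences stayed below 0 in every setting tried, but their calls did not hold. In the library labelled mutant embryo 2 each of the 4 genes was lower than in mutant embryo 1. Without that library the differences were -1.13 for Epha3, -0.73 for Ntn5, -0.62 for Robo4 and -0.41 for Unc5c. Without mutant embryo 1 they were -1.91, -1.20, -1.095 and -0.57 in the same order. Either fit leaves 1 mutant library, assumed to vary like the other groups, so no call is read from it. Without wild-type embryo 1 or 2, Epha3 was at -1.59 or -1.45. Scaling to a common median or 75th percentile without background correction gave 0 member calls. Epha3 was at -1.82 and -1.88 on those scales, with only 0 and 2 calls over all genes.

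Cell type markers were read in the same embryos, in a comparison where 2.14% of all genes tested were called. Of 13 tested neuron markers 9 fell in mutant embryos (median log2 difference -1.08), with a summed signal of 1458 to 1587 in mutant and 3055 to 3200 in wild-type embryos, and the Dcx and Neurod1 probes used were detected on no mutant embryo array. Of 10 neural progenitor markers 3 fell (3264 to 3460 in mutant and 4225 to 4593 in wild-type embryos), as did 3 of 9 neural crest and head mesenchyme markers (4894 to 5164 in mutant and 5377 to 5570 in wild-type embryos). Conversely 4 of 8 somite and tailbud markers rose (2669 to 2738 in mutant and 1283 to 1494 in wild-type embryos). Without the library labelled mutant embryo 2, the median log2 differences were -0.92 for neuron and -0.31 for progenitor markers (-1.08 and -0.46 with it). For crest and head mesenchyme markers and for somite and tailbud markers they were -0.24 and 0.64 (-0.22 and 0.78 with it). The part of these cell types in the fall of Epha3, Ntn5, Robo4 and Unc5c was not tested.

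Of 17 tested endothelial markers 1 was called higher in mutant embryos (Adgrl4) and 0 lower. Of the 17, 12 lay above 0, with a median log2 difference of 0.05. Their summed signal was 6509 to 7012 in mutant and 6322 to 6387 in wild-type embryos, and all 17 were detected in mutant embryos. Without the library labelled mutant embryo 2 the median of the 17 was 0.00, with Adgrl4 at 0.78. Arterial markers gave 0 calls of 8 with a median of -0.11, and 2 of the 8 lay above 0. Their sums were 2204 to 2303 in mutant and 2643 to 2706 in wild-type embryos. The part of endothelial cells in the fall of Robo4 was not tested.

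**Figure D2:**
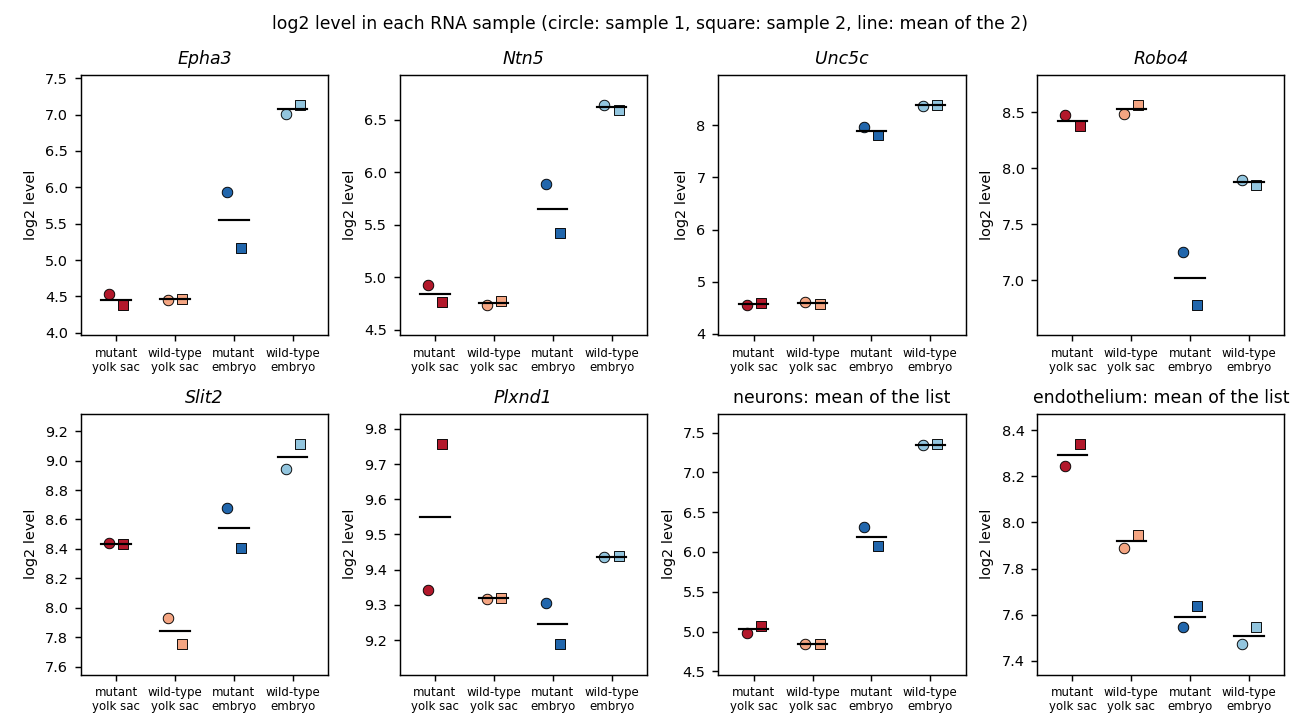
Log2 level (vertical axis, a separate scale in each panel) of 6 members and the mean log2 level of the neuron and endothelium marker lists in each RNA sample, with circles for sample 1, squares for sample 2 (the square of the mutant embryo group is the library labelled mutant embryo 2) and a line at the mean. Epha3, Ntn5, Robo4 and Unc5c lie lower in both mutant embryos than in both wild types, the neuron list does too, and the endothelium list does not. Slit2 and Plxnd1 lie higher in mutant yolk sacs and lower in mutant embryos, without passing the test in either tissue.

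The promoters of these 4 genes are shown because they are the members called between genotypes. Each runs from 250 bases before to 50 after the annotated start (RefSeq, GRCm38.p6), with capitals marking the 4 letters GGAA on either strand (TTCC on the strand shown), the core of sites for ETS factors. The Epha3 promoter is chr16:63864126-63864425 on the minus strand, that of Ntn5 chr7:45683772-45684071 on the plus strand, that of Robo4 chr9:37401722-37402021 on the plus strand and that of Unc5c chr3:141465314-141465613 on the plus strand.
Epha3: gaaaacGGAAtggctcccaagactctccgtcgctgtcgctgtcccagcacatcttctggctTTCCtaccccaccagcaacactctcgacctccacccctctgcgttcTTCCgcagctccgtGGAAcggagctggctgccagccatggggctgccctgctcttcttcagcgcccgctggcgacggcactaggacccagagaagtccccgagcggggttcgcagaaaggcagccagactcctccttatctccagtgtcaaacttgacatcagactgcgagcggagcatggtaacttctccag
Ntn5: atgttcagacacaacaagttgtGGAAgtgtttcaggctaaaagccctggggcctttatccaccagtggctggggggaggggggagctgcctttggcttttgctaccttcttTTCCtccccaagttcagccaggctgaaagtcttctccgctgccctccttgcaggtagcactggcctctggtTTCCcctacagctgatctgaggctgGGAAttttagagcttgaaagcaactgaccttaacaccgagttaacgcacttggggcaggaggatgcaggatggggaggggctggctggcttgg
Robo4: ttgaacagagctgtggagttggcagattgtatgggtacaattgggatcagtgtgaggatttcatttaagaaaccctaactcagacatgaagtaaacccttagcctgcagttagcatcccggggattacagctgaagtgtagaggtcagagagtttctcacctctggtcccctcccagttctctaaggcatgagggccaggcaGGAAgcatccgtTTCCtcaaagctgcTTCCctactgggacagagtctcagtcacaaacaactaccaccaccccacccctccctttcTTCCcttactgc
Unc5c: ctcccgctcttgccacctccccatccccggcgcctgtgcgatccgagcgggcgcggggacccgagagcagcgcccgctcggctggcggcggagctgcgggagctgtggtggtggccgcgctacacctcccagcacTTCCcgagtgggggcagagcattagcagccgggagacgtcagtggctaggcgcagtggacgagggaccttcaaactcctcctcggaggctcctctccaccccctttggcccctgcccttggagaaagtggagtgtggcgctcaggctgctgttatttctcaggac
The core occurs 4 times in the Epha3, Ntn5 and Robo4 windows and once in that of Unc5c. It is a common string: 95.9% of 27025 promoters hold it, with a median of 3. The 4 windows differ in base composition. Those of Robo4 and Ntn5 have 2 and 3 CG pairs (GC content 50.3% and 55.3%), below the median of 7 over all promoters, while those of Epha3 and Unc5c have 18 and 24 (60.7% and 68.3%). A match is a description of letters, and these data do not bear on binding.

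Among the members that missed the threshold in embryos, the neuropilins lay above wild type by the probes used. Nrp1 had 10.56 in mutant embryo 1, with 10.38 for the library labelled mutant embryo 2, against 9.88 and 10.18 in wild types (0.44 ± 0.13, 95% interval 0.14 to 0.74, adjusted p = 0.185). Nrp2, the co-receptor tied to veins and lymphatics, had 6.29 and 6.79, against 5.97 and 6.04 (0.54 ± 0.17, adjusted p = 0.235). Neither gene's groups overlapped on these probes. The other kept probes of Nrp1 differed by 0.33 and 0.41, whereas those of Nrp2 were at 0.00 and -0.03, so no direction is drawn for Nrp2.

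Of the Eph and ephrin pairs of vessels, arterial Efnb2 had 7.46 and 7.66 in the mutant libraries, against 7.12 and 7.28 in wild-type embryos (0.36 ± 0.12, adjusted p = 0.263). Its venous receptor Ephb4 had 10.12 and 10.19, against 10.08 and 10.13 (0.05 ± 0.10, 95% interval -0.20 to 0.29). Efnb1, a ligand of EphB receptors on mesenchyme, had the ephrins' widest difference in embryos, 9.04 and 8.77 against 9.26 and 9.38 in wild types (-0.41 ± 0.13, adjusted p = 0.219). The Efnb1 and Efnb2 groups did not overlap, and those of Ephb4 did.

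Efna1, a ligand of the A class, had 6.62 and 6.78 in the mutant libraries, against 6.80 and 6.68 in wild types, with overlap (-0.04 ± 0.14). Epha2, its endothelial receptor, had 5.50 and 5.66, against 5.42 and 5.29 (0.23 ± 0.16, adjusted p = 0.644). Sema7a, a membrane-anchored semaphorin, had the widest difference of its family, with 4.97 and 4.93 in the mutant libraries, against 5.22 and 5.33 in wild types (-0.32 ± 0.17, 95% interval -0.71 to 0.06), and it was detected on 1 of 4 mutant and 3 of 4 wild-type embryo arrays.

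Sema3a, the repellent ligand of Nrp1, had 7.86 and 7.95 in the mutant libraries, against 7.68 and 7.52 in wild-type embryos (0.30 ± 0.10, adjusted p = 0.284). Sema3c, known from outflow tract vessels, had 5.09 and 4.94, against 5.11 and 5.15 (-0.12 ± 0.09), and was detected on 2 of 4 arrays in each embryo group. Robo1, the main Slit receptor of commissural axons, had 10.43 and 10.32, against 10.29 and 10.24 (0.11 ± 0.13). Slit3 had 6.54 and 6.48, against 6.32 and 6.30 (0.20 ± 0.17), with its other kept probe at -0.11, and Unc5b had 8.13 and 8.03, against 7.88 and 8.05 (0.11 ± 0.17).

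The samples of 28 of 44 members did not overlap between mutant and wild-type embryos (63.6%, 13 higher and 15 lower), against 51.9% of all genes tested. With 2 samples in each group such separation is common, and the embryo pair of groups separated a slightly larger share of members than of genes at large.

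**Figure D3:**
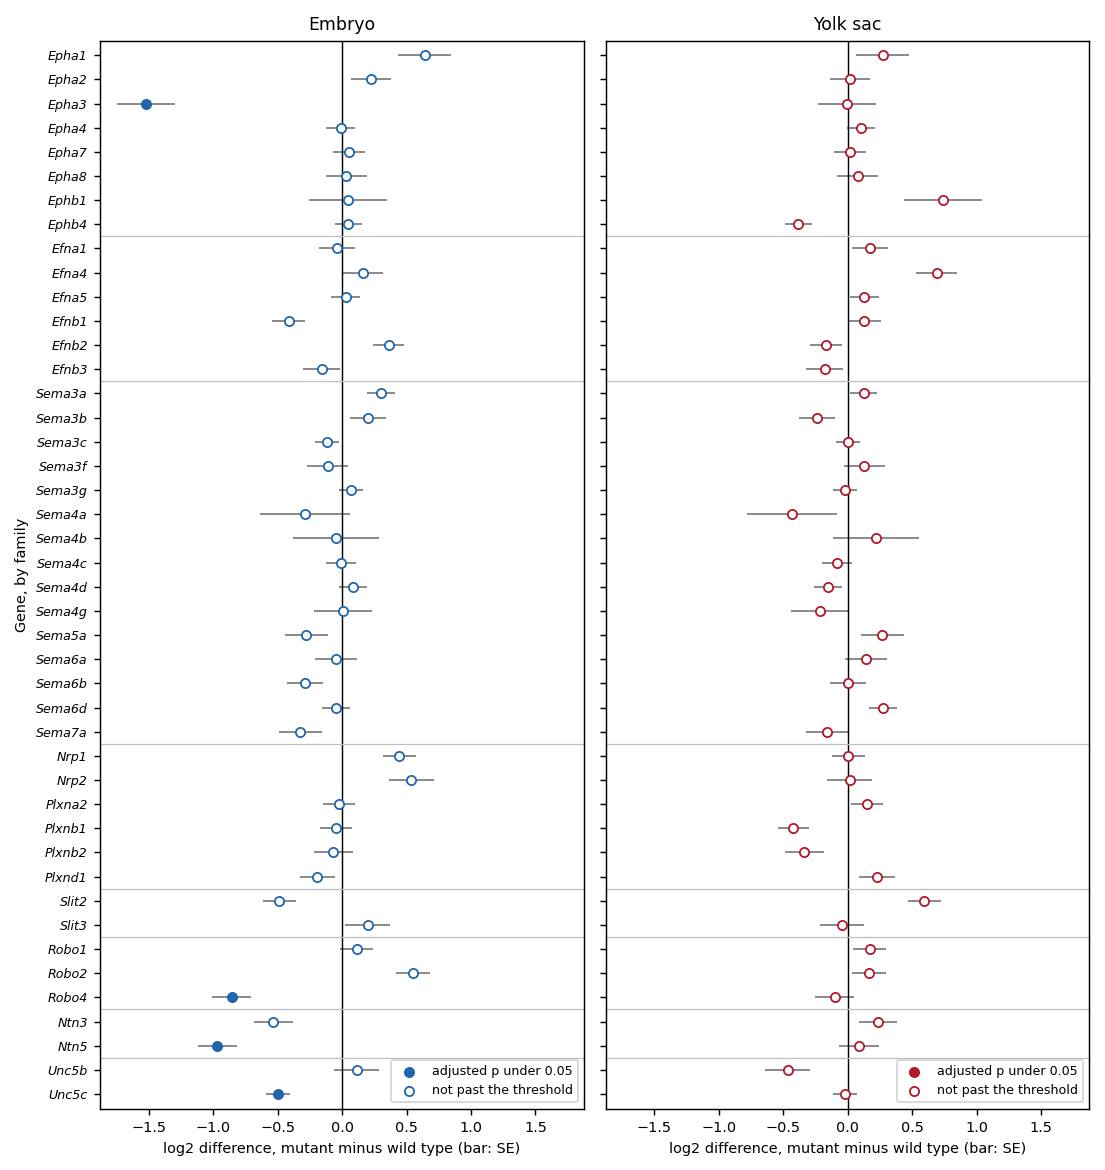
Log2 difference, mutant minus wild type, for each tested member in embryos (left) and yolk sacs (right), with bars for the SE and filled points for an adjusted p under 0.05. Filled points occur in the embryo panel only, at Epha3 (-1.52), Ntn5 (-0.97), Robo4 (-0.86) and Unc5c (-0.49).

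In yolk sacs 0 of 44 members passed the threshold, against 1.27% of all genes tested (limma). At an unadjusted p under 0.05 there were 7 members, or 15.9%, against 20.9% of all genes. The members' differences ran from -0.46 for Unc5b to 0.74 for Ephb1, with a median of 0.02 beside 0.00 for all genes and a median SE of 0.14. The lowest adjusted p values belonged to the secreted Robo ligand Slit2 and the ephrin Efna4.

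Slit2 had a log2 level of 8.44 and 8.43 in mutant yolk sacs and 7.93 and 7.75 in wild-type yolk sacs (0.59 ± 0.13, 95% interval 0.30 to 0.89, adjusted p = 0.068). The groups did not overlap, but the probes of Slit2 disagreed: the other 2 kept probes, detected on no yolk sac array, differed by -0.08 and -0.09. Efna4, a ligand of EphA receptors, had 6.93 and 7.38 in mutant and 6.41 and 6.51 in wild-type yolk sacs (0.69 ± 0.16, adjusted p = 0.0761). Without mutant yolk sac 1, the lower of the 2 mutants, its difference was 0.91, so its size depends on mutant yolk sac 2.

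Ephb1, an EphB receptor, had 4.83 and 5.83 in mutant and 4.67 and 4.51 in wild-type yolk sacs. The probe used was detected on 2 of 4 mutant and 0 of 4 wild-type arrays (0.74, adjusted p = 0.225), and the difference rests on mutant yolk sac 2. Another Ephb1 probe, too rarely detected to be kept, was detected on 0 mutant and 2 wild-type yolk sac arrays and differed by -0.26, so no direction is drawn for Ephb1.

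A set of 3 receptors had lower means in mutant yolk sacs without passing the test. Unc5b, the netrin receptor of arteries and tip cells, had 8.18 and 8.74 in mutant and 8.90 and 8.95 in wild-type yolk sacs (-0.46 ± 0.17, adjusted p = 0.194). Ephb4 had 9.20 and 9.40 in mutant and 9.62 and 9.75 in wild-type yolk sacs (-0.38 ± 0.10, adjusted p = 0.109), and its other probes differed by -0.41 and -0.62. Plxnb1, a receptor for Sema4d, had 5.07 and 5.15 in mutant and 5.48 and 5.58 in wild-type yolk sacs (-0.42 ± 0.12, adjusted p = 0.118). None of these 3 overlapped between genotypes.

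Endothelial markers stood beside these values: 3 of 17 rose in mutant yolk sacs (Pecam1, Sox7 and Adgrl4) and 0 fell, with a median of 0.40 and a summed signal of 9076 to 10202 in mutant and 7257 to 7748 in wild-type yolk sacs. Of 8 arterial markers 1 rose (Hey1), with a median of 0.38 and sums of 1691 to 1835 in mutant and 1057 to 1458 in wild-type yolk sacs. Of 13 neuron markers 2 rose (Isl1 and Gap43), with sums of 501 to 565 in mutant and 410 to 419 in wild-type yolk sacs. By the probes used, 9 of the 13, Isl1 among them, were detected on no wild-type yolk sac array. On mutant yolk sac arrays 6 of the 13 were never detected, so no rise of neurons is drawn from these sums. Over all genes tested 1.27% were called in yolk sacs, and the part of these markers in the members' values was not tested.

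The neuropilins and Robo4 had intervals that include 0 in yolk sacs. Nrp1 had 10.59 and 10.59 in mutant and 10.51 and 10.66 in wild-type yolk sacs (0.01 ± 0.13, 95% interval -0.29 to 0.30), with its other kept probes at -0.27 and 0.00. Nrp2 had 6.86 and 6.62 in mutant and 6.64 and 6.81 in wild-type yolk sacs (0.02, interval -0.39 to 0.42), with its other kept probes at -0.31 and 0.17. Robo4 had 8.47 and 8.38 in mutant and 8.48 and 8.57 in wild-type yolk sacs (-0.10 ± 0.15, interval -0.46 to 0.26). The Robo4 interval in yolk sacs does not reach the 0.86 by which Robo4 fell in embryos, although the difference between the tissues did not pass (0.76 ± 0.22, adjusted p = 0.136).

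Plxnd1 had 9.34 and 9.76 in mutant and 9.32 and 9.32 in wild-type yolk sacs (0.23 ± 0.14), and its other probes differed by 0.23 and 0.32. Efnb2 had 5.36 and 5.31 in mutant and 5.61 and 5.39 in wild-type yolk sacs (-0.17 ± 0.12). Epha2 had 6.22 and 6.69 in mutant and 6.44 and 6.43 in wild-type yolk sacs (0.02 ± 0.16). Of these only Plxnd1 and Efnb2 separated the genotypes, by small margins.

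Efna1 had 7.04 and 6.90 in mutant and 6.62 and 6.98 in wild-type yolk sacs (0.17 ± 0.14). Slit3 had 6.15 and 6.62 in mutant and 6.25 and 6.61 in wild-type yolk sacs (-0.04 ± 0.17), and its other kept probe differed by 0.45. Robo1 had 7.95 and 7.93 in mutant and 7.59 and 7.95 in wild-type yolk sacs (0.17 ± 0.13). All 3 overlapped between genotypes on the probes used.

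Among semaphorins and netrins the widest yolk sac differences were those of Sema4a and Ntn3. Sema4a, a transmembrane semaphorin also known from immune cells, had 10.93 and 11.08 in mutant and 11.52 and 11.35 in wild-type yolk sacs (-0.43 ± 0.35, adjusted p = 0.532). Ntn3 had 7.49 and 7.81 in mutant and 7.44 and 7.38 in wild-type yolk sacs (0.24 ± 0.15, adjusted p = 0.410). Neither overlapped, in a comparison where 16 of 44 members (36.4%, 10 higher and 6 lower) and 48% of all genes tested did not overlap.

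Whether the genotype effect differed between tissues was tested as the yolk sac effect minus the embryo effect. No member of 44 passed (0.336% of all genes did), with 12 members (27.3%) at an unadjusted p under 0.05, against 18.7% of all genes. The 3 lowest adjusted p values were those of Slit2 (1.08 ± 0.18, adjusted p = 0.0629), Ntn5 (1.06 ± 0.22, 0.0748) and Epha3 (1.51 ± 0.32, 0.0776). With the conceptus as a block, which uses that each embryo has its own yolk sac, Slit2 had an adjusted p of 0.127. Without mutant embryo 1 both Epha3 (1.91, adjusted p = 0.0149) and Ntn5 (1.29, adjusted p = 0.0337) passed.

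Slit2 was 1 of 4 members whose samples did not overlap in either tissue and whose tissues went opposite ways. In embryos it had 8.68 in mutant embryo 1, with 8.41 for the library labelled mutant embryo 2, against 8.94 and 9.11 in wild types (-0.49 ± 0.13, adjusted p = 0.137). Its other kept probes were at -0.42 and -0.42. Of these, 1 was detected on the 4 wild-type embryo arrays alone, so its direction follows from the filter. Plxnd1 had 9.30 and 9.19 in the mutant libraries, against 9.44 and 9.44 in wild-type embryos (-0.19 ± 0.14), opposite to its yolk sac value on all 3 probes. Ntn3 had 7.45 and 7.12, against 7.75 and 7.88 (-0.53 ± 0.15, adjusted p = 0.172), and its other probe differed by -0.13. Efnb2 was the reverse of these, lower in mutant yolk sacs and higher in mutant embryos. These 4 are 9.09% of members, against 12.5% of all genes tested, so such a pattern was no more frequent here than on the array as a whole.

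Tissue separated the families far more than genotype. In wild types 34 of 44 members differed between yolk sac and embryo, 12 higher and 22 lower in yolk sac. That is 77.3% of members, against 69.5% of all genes tested, of which 33.3% were higher and 36.2% lower in yolk sac. The members' median log2 difference, yolk sac minus embryo, was -0.29 beside -0.03 for all genes. Ligands gave 5 higher and 13 lower of 25, and receptors 7 higher and 9 lower of 19. Of the lower calls 6 (Epha3, Epha7, Robo2, Sema3a, Sema3c and Unc5c) used probes detected on no yolk sac array. These probes passed the detection filter through embryo arrays alone, so their direction follows from the filter and their p-values do not support it. Scaled to a common median without background correction, the split was 16 higher and 18 lower, on a scale where the median of all genes was 0.35.

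The receptors lower in yolk sac were led by genes of axon and mesenchyme guidance. Unc5c had 4.62 and 4.58 in wild-type yolk sacs and 8.37 and 8.39 in wild-type embryos. As it was detected on no yolk sac array, it was at least 9.72-fold lower there. Such a bound sets the embryo mean against the dimmest signal that counted as detected. Epha7, a receptor for A-class ephrins in the neural tube, had 4.66 and 4.92 in wild-type yolk sacs and 7.78 and 7.58 in wild-type embryos (at least 5.97-fold lower in yolk sac).

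Ephb1 had 4.67 and 4.51 in wild-type yolk sacs, where the probe used was detected on no array, and 7.46 and 7.39 in wild-type embryos (at least 5.01-fold lower in yolk sac by that probe). Epha3 was at least 3.92-fold lower in wild-type yolk sacs. Robo1, detected on all arrays, had 7.59 and 7.95 in wild-type yolk sacs and 10.29 and 10.24 in wild-type embryos (-2.50 ± 0.13, adjusted p = 3.30e-06). None of these receptors overlapped between tissues.

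Among ligands Sema3a had 4.46 and 4.45 in wild-type yolk sacs and 7.68 and 7.52 in wild-type embryos, at least 5.67-fold lower in yolk sac. Efna5, a ligand of Epha3 and Epha7, had 8.32 and 8.60 in wild-type yolk sacs and 11.47 and 11.42 in wild-type embryos (-2.99 ± 0.11, adjusted p = 9.54e-07). Efna4 had 6.41 and 6.51 in wild-type yolk sacs and 9.03 and 8.90 in wild-type embryos (-2.50 ± 0.16). For all 3 the lowest embryo lay more than 2 log2 units above the highest yolk sac.

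Efnb2 had 5.61 and 5.39 in wild-type yolk sacs and 7.12 and 7.28 in wild-type embryos (-1.70 ± 0.12, adjusted p = 1.32e-05). Ntn5 had 4.73 and 4.78 in wild-type yolk sacs and 6.64 and 6.59 in wild-type embryos, at least 2.87-fold lower in yolk sac. Slit2 was lower in yolk sac by its chosen probe (-1.19 ± 0.13, adjusted p = 9.96e-05). Its other kept probes, at -0.38 and -0.79, were detected on no yolk sac array, so their direction follows from the filter. Sema3c was at least 1.02-fold lower in yolk sac, the narrowest of these bounds.

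The members higher in yolk sac were fewer, and Sema4a and Sema4g had the widest differences. Sema4a had 11.52 and 11.35 in wild-type yolk sacs and 7.00 and 8.27 in wild-type embryos (3.80 ± 0.35, 13.9 times the embryo level, adjusted p = 4.56e-05). The 2 wild-type embryos stood apart for it, in the order of their visceral endoderm markers given above, and the part of that tissue was not tested. Sema4g had 7.17 and 7.72 in wild-type yolk sacs and 5.19 and 5.23 in wild-type embryos (2.23 ± 0.22, adjusted p = 7.30e-05), where it was detected on 3 of 4 arrays.

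Sema4d had 5.67 and 5.84 in wild-type yolk sacs and 5.16 and 5.14 in wild-type embryos (0.60 ± 0.11, adjusted p = 0.00157), whereas Sema4b (0.53, adjusted p = 0.189) and Sema4c (-0.18) did not pass. Plxnb2, a plexin that binds class 4 semaphorins, had 10.40 and 10.72 in wild-type yolk sacs and 9.12 and 9.19 in wild-type embryos (1.40 ± 0.15, adjusted p = 0.000103). Plxnb1 went the other way, with 5.48 and 5.58 in wild-type yolk sacs and 6.17 and 5.88 in wild-type embryos (-0.49 ± 0.12, adjusted p = 0.00783).

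Of Eph receptors Epha1, found on epithelia, had 7.76 and 7.90 in wild-type yolk sacs and 5.93 and 5.94 in wild-type embryos (1.90 ± 0.20, adjusted p = 0.000111). Epha2 had 6.44 and 6.43 in wild-type yolk sacs and 5.42 and 5.29 in wild-type embryos (1.08 ± 0.16, adjusted p = 0.000543). Its ligand Efna1 did not pass (0.06 ± 0.14).

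The endothelial receptors were higher in yolk sac by less. Unc5b had 8.90 and 8.95 in wild-type yolk sacs and 7.88 and 8.05 in wild-type embryos (0.96 ± 0.17, adjusted p = 0.00181), and Robo4 had 8.48 and 8.57 in wild-type yolk sacs and 7.90 and 7.85 in wild-type embryos (0.65 ± 0.15, adjusted p = 0.00635). Nrp1 had 10.51 and 10.66 in wild-type yolk sacs and 9.88 and 10.18 in wild-type embryos (0.56 ± 0.13, adjusted p = 0.00571). Its other kept probes differed by 0.11 and 0.60. Nrp2 had 6.64 and 6.81 in wild-type yolk sacs and 5.97 and 6.04 in wild-type embryos (0.72 ± 0.17, adjusted p = 0.00688), but with the mean of its kept probes it was at 0.28 and did not pass.

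Of 17 endothelial markers 11 were higher and 2 lower in wild-type yolk sacs, against 33.3% and 36.2% of all genes tested. The marker sums were 7257 to 7748 in wild-type yolk sacs and 6322 to 6387 in wild-type embryos. Plxnd1 (-0.12 ± 0.14) and Slit3 (0.12 ± 0.17) did not pass between tissues. The probes of Ephb4 disagreed, at -0.42 (adjusted p = 0.00837), -0.11 and 0.33, so no direction between tissues is drawn for it.

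The other 8 members lower in wild-type yolk sacs (Efnb3, Sema3f, Sema5a, Sema6a, Sema6d, Plxna2, Robo2 and Ntn3) ranged from -1.23 to -0.41, and Sema3b and Sema6b were higher by 0.39 and 0.37. Kept probes of Sema6a, Sema5a (a probe at 0.06), Robo2 (0.13) and Ntn3 (0.04) disagreed in sign, as did those of Ephb4 and Plxnd1, 6 members in all. The 10 members that did not pass, among them Epha4, Epha8, Efnb1, Sema3g and Sema7a, ranged from -0.18 to 0.53.

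In mutants 28 of 44 members differed between yolk sac and embryo, 10 higher and 18 lower in yolk sac (63.6%, against 69.3% of all genes tested, of which 32.8% were higher and 36.5% lower). The median was -0.11 beside -0.05 for all genes, and scaling to a common median gave 15 higher and 15 lower with the median of all genes at 0.32. A total of 26 members were called in both genotypes in the same direction, 8 higher and 18 lower, which is 92.9% of the mutant and 76.5% of the wild-type calls. The 18 include the 6 members whose probes were detected on no yolk sac array, so their direction follows from the filter. Only Epha4 and Efnb1 passed in mutants alone. Sema3b, Sema6a, Sema6d, Nrp1, Nrp2, Slit2, Ntn3 and Unc5b passed in wild types alone, and for none of these 10 did the test of the difference between genotypes pass, which is the same contrast as the difference between the tissues' genotype effects.

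Robo4 was higher in yolk sac by 1.41 ± 0.15 in mutants and by 0.65 ± 0.15 in wild types, and Epha3 was at least 1.41-fold lower in yolk sac in mutants and at least 3.92-fold lower in wild types. As given above, neither difference between genotypes passed its test. Unc5c was at least 7.11-fold lower in mutant yolk sacs than in mutant embryos, and Sema3a at least 7.20-fold lower. With the conceptus as a block, Sema3b (adjusted p = 0.0616) and Ntn3 (0.0812) lost their wild-type tissue calls.

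**Figure D4:**
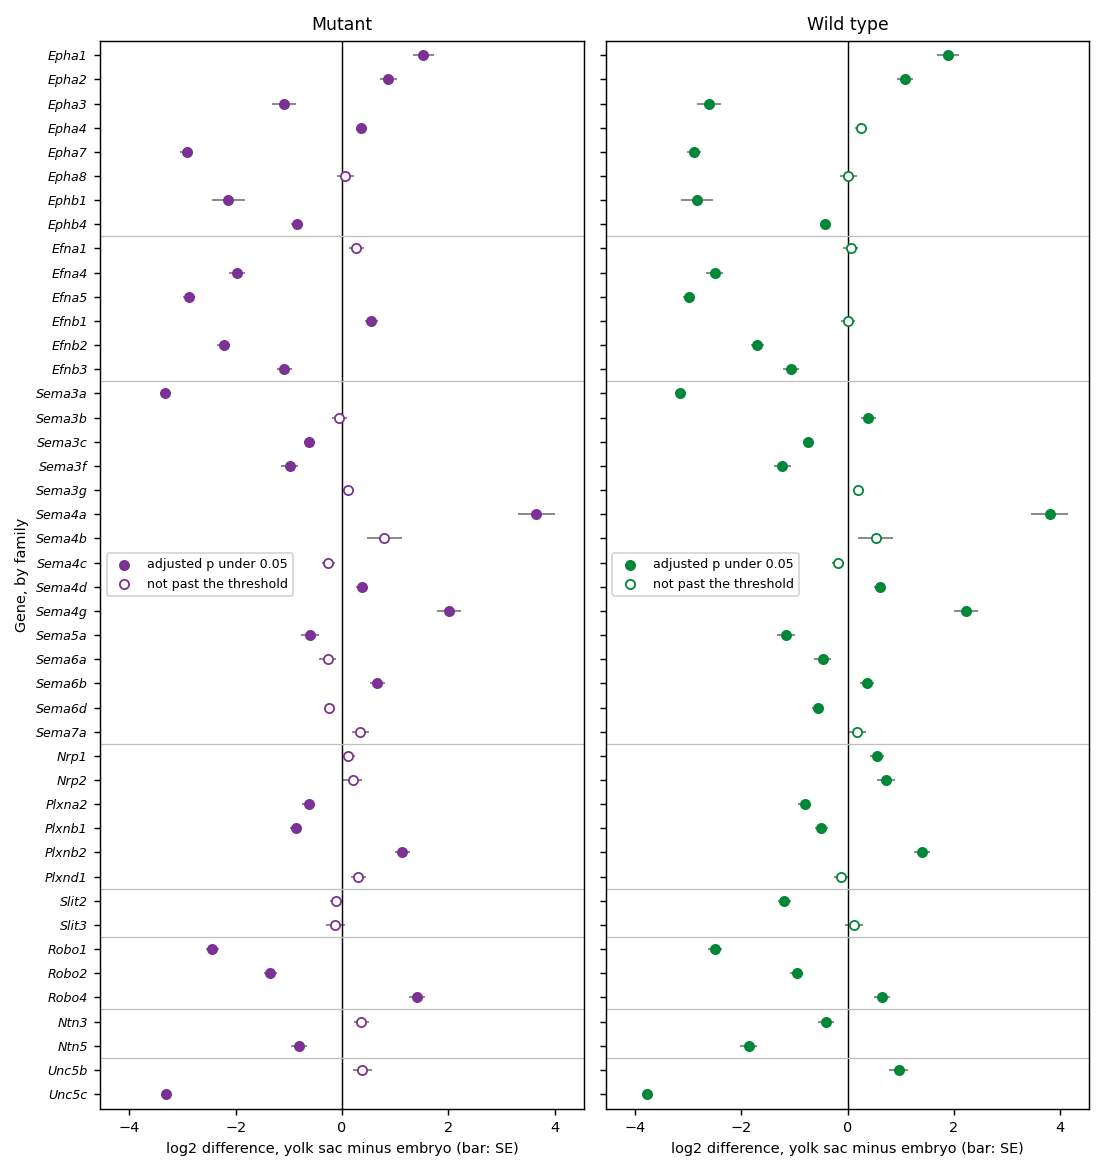
Log2 difference, yolk sac minus embryo, for each tested member in mutants (left) and wild types (right), with bars for the SE and filled points for an adjusted p under 0.05. The 26 members called in both genotypes lie on the same side of 0 in both panels, with Sema4a at 3.66 in mutants and 3.80 in wild types at the right end and Unc5c and Sema3a at the left end.

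Genes that work beside these families were described the same way. Of 13 tested co-receptors and partners (such as Neo1, the Flrt proteins, Cntn2 and Cxcr4) 0 were called by limma in embryos. In yolk sacs 1 fell, and over all genes tested 2.14% were called in embryos and 1.27% in yolk sacs. That gene was Cntn2, known as an axonal adhesion molecule, with 5.66 and 5.75 in mutant and 6.41 and 6.64 in wild-type yolk sacs (-0.82 ± 0.10, limma adjusted p = 0.0387). The Cntn2 probe used was detected on no embryo array of either genotype, so no link to axons is drawn from it. Between tissues all 13 differed in wild types, 2 higher and 11 lower in yolk sac, with a median of -2.63. Over all genes tested 69.5% differed, 33.3% higher and 36.2% lower.

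Of 30 tested effectors inside the cell 2 fell in mutant embryos and 1 in mutant yolk sacs, where 2.14% and 1.27% of all genes were called. Dpysl4, a collapsin response mediator of semaphorin signalling, had 8.87 in mutant embryo 1, with 8.61 for the library labelled mutant embryo 2, against 9.78 and 9.71 in wild-type embryos (-1.004 ± 0.11, adjusted p = 0.0104). Srgap3, a GTPase-activating protein downstream of Robo, had 8.46 and 8.00, against 9.34 and 9.22 (-1.05 ± 0.19, adjusted p = 0.0429). In a fit without the library labelled mutant embryo 2, which leaves 1 mutant embryo, Dpysl4 was at -0.87 and Srgap3 at -0.82. Both are abundant in neurons, and the part of neurons in their fall was not tested.

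Cdc42, the GTPase of actin protrusions, had 9.63 and 9.61 in mutant and 10.22 and 10.19 in wild-type yolk sacs (-0.58 ± 0.09, adjusted p = 0.0434). Dpysl4 was the only gene of these 2 lists past the threshold in the difference between the genotype effects (1.14 ± 0.16, limma adjusted p = 0.0474). Over all genes tested, 0.336% passed there. Without the library labelled mutant embryo 2, Dpysl4 was at 1.005. In the wild-type tissue comparison 6 of the 30 effectors were higher and 17 lower in yolk sac, with a median of -0.47. Of all genes tested, 33.3% were higher and 36.2% lower.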

How the data were processed

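The deposited signals are linear probe intensities, from which the authors had already subtracted background (28.1 to 32.7% of values per array were below 0). Columns headed as p-values hold, as deposited, a score from 0 to 1 that does not follow the signal beside it (Spearman correlation 0.00157 to 0.0106). They were taken as detection scores with 1 for the brightest probes and paired with the signals of the same array by rank, an assumption the sources do not settle. The processed log2 values, to which the authors gave 1 shift per array and a median of 0 per probe in each tissue, served as an alternative. Their array medians ran from -0.28 to 0.15, their direction follows the signal, and what their scaling was based on is unknown.

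Signals were corrected and quantile normalized with neqc (offset 16) in limma 3.58.1 under R 4.3.3. A probe counted as detected at a matched score of at least 0.95 (1 minus 0.05), and each gene was read by 1 probe, the brightest on average among those detected on at least 4 arrays. Of 45281 probes 34885 have 1 gene symbol in the platform annotation, 18 have several and 10378 have none here. Repeat arrays were averaged, and lmFit and eBayes were fitted to 4 group means of 2 RNA samples over all 11324 genes (residual degrees of freedom 4), with Benjamini-Hochberg adjusted p-values and a threshold of 0.05. With 2 samples a group the p-values rest on a spread shared by the 4 groups. The fit was run on simulated data with independent noise and known changes in the mutant yolk sac group. That checks the computation and does not bear on the calls made here.

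Samples were grouped by their labels. Embryo and yolk sac of 1 conceptus are paired by design, and their deviations from the group means correlated at 0.22 in mutants and 0.04 in wild types. The members and marker lists were chosen with earlier results of these data known. Values are given by sample for members past the threshold in a genotype comparison, the widest member of each family in each, the 10 widest called each way between wild-type tissues, and members with a textbook role in vessels. Promoters come from RefSeq, where 40 of the 44 tested members matched.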

Additional observations from a re-analysis of the deposited data

How the results depend on the processing

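The calls between genotypes depended on the processing, and those between tissues did so less. In embryos the 4 calls became 0 with scaling to a common median, scaling to a common 75th percentile, the authors' processed values, the embryo samples fitted alone, and the pair of embryo samples named in the series design. They became 1 with no filter on dim probes and 2 with probes detected on at least 8 arrays. In yolk sacs the 0 calls became 1 under the first 3 of these settings, each time Robo2, whose probe used here no yolk sac array detected. In the difference between the genotype effects 0 became 1 with an offset of 50. Fewer samples were fitted in the embryo settings, and for the others the cause was not tested.

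Leaving out 1 RNA sample leaves 1 sample in its group, so only effect sizes are given for those fits. The embryo difference then ran from -1.91 to -1.13 for Epha3 and from -1.20 to -0.735 for Ntn5. It ran from -1.095 to -0.62 for Robo4 and from -0.57 to -0.415 for Unc5c. With the replicate number as a block the counts of calls were 0 in yolk sacs, 3 in embryos (Unc5c was lost) and 0 in the difference. With the conceptus as a block they were 32 between wild-type tissues, 28 between mutant tissues and 0 in the difference. For the difference this block was chosen after seeing the data. So was the refit of the marker and partner lists without the library labelled mutant embryo 2. Samples of 1 number from different genotypes correlated at 0.172 in yolk sacs and 0.192 in embryos.

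Of the 34 wild-type tissue calls 26 held in every setting run, and of the 28 mutant calls 23 did. Ephb4 turned to 0.11 between wild-type tissues with a common median (-0.42 otherwise), and Sema6a to 0.10 with the mean of its kept probes (-0.47 otherwise). Of 18 members with several kept probes, 8 had probes that differed in sign in yolk sacs and 7 in embryos. Members near the detection limit carry little signal over background, which limits what can be said of the 20 members not tested.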
